A study of Mus musculus with 9 samples.

Results

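The transcripts described here are those of the nuclear genes for respiratory complexes II, III, IV and V of mouse podocytes, with cytochrome c. They were chosen by symbol from a table of 23309 gene symbols: Sdha to Sdhd with their assembly factors, all Uqcr, Cox4 to Cox8 and Atp5 symbols, Cyc1 and Cycs. The choice gave 51 genes: 6 for complex II (4 subunits and the assembly factors Sdhaf1 and Sdhaf2), 9 for complex III, 18 for complex IV, 17 for complex V and the carrier Cycs. Atp5s and Atp5sl are among the 17 by their symbols and are not counted as subunits. Of the 51, 46 reached 1 FPKM (fragments scaled to transcript length and library size) in at least 3 libraries and were tested. The other 5 are the isoforms Cox4i2, Cox6a2, Cox7b2, Cox8b and Cox8c, whose highest value in any library was 0.611 FPKM.

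The series, whose title names WT1 and injury repair, profiled podocytes, epithelial cells whose foot processes cover the capillaries of the glomerulus. All mice were of wildtype genotype, 7 to 8 weeks old, and carried the mTmG reporter with a podocyte Cre transgene that switches it to GFP. GFP-positive podocytes were isolated after PBS (3 libraries), 9 days after injection of an agent labelled ADR (3 libraries) and 14 days after it (3 libraries), and total RNA was sequenced after removal of ribosomal RNA. Nothing in the labels ties the 3 libraries of a group to separate animals, so p-values measure only the spread between libraries, which may in part be technical. In bulk RNA, fewer cells of a type and less RNA per cell cannot be told apart.

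The respiratory chain of the inner mitochondrial membrane passes electrons from NADH and succinate to oxygen and pumps protons, and ATP synthase uses the proton gradient to make ATP. Complex II oxidises succinate and is also the succinate dehydrogenase of the citric acid cycle. Complex III passes electrons from ubiquinol to cytochrome c, complex IV passes them from cytochrome c to oxygen, and complex V is ATP synthase. Complexes III, IV and V also hold subunits encoded by mitochondrial DNA, which are not analysed here, while all complex II subunits are nuclear. Podocytes need ATP to maintain their foot processes, and both glycolysis and mitochondria supply it.

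Before the results, the libraries differ in ways that touch them. Column totals ran from 572787 to 723288 FPKM, and the relative depth estimated from the lowest values, with PBS replicate 2 set to 1, was 0.786 to 1.085 with PBS and on day 9 but 0.239, 0.460 and 0.569 on day 14. Podocyte markers (Nphs1, Podxl, Synpo, Wt1) were above 0 in all 9 libraries and summed to 251 to 292 FPKM after PBS, 336 to 542 on day 9 and 114 to 175 on day 14. ADR_D14 replicate 1 held markers of other kidney cells: 13 of 14 proximal tubule, 12 of 12 distal tubule, loop and duct, 11 of 12 endothelial and 7 of 10 leukocyte markers reached 1 FPKM and lay over 4 times above every PBS library. ADR_D9 replicate 3 did so for 11 of 12 endothelial, 6 of 10 leukocyte, 4 of 14 proximal tubule, and 8 of 12 distal tubule, loop and duct markers. In the other 4 libraries after ADR, at most 2 markers of any of these lists did so (Kdr and Emcn among endothelial ones in ADR_D14 replicate 3). Of 7 red cell markers, 4 did so in ADR_D9 replicate 3, 3 in ADR_D14 replicate 1, 2 in ADR_D9 replicate 1 and 1 in ADR_D14 replicate 2. Y-linked transcripts (4 genes) summed to 53.6 to 70.5 FPKM in all PBS libraries, ADR_D9 replicate 1 and ADR_D14 replicate 2, and to at most 1.06 FPKM in the other 4 libraries. The libraries of day 9, and those of day 14, therefore did not all come from 1 animal. For the PBS libraries these sums cannot tell.

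In the PBS libraries, members of 1 complex spanned a wide range of levels on the FPKM scale, as the plot of levels by library shows. In complex IV, mean levels ran from 5405 ± 155 FPKM for Cox7c to 2.97 ± 0.277 for Cox7a2l (SD, n = 3, as for all means below). Complex III ran from 4137 ± 170 FPKM for Uqcr10 to 8.09 ± 1.20 for Uqcrq, although both encode small subunits. Complex II was the narrowest: its subunits ran from 609 ± 86.5 FPKM for Sdhb to 99.2 ± 11.9 for Sdha. Of the 51 members, 16 share more than 10% of the 36-base stretches of their longest GENCODE M21 transcript with transcripts of other genes, among them Atp5o (37.8%), Cycs (31.0%), Cox5b (30.5%), Cox7c (29.4%) and Uqcrb (27.2%). How the deposited values treat reads from such stretches is not given in the sources used here, so the levels of these members are uncertain. Sdha, Sdhb, Cyc1, Uqcrq and Cox7a1 share 0% with annotated transcripts of other genes. Copies outside annotated transcripts were not searched, and no other measure of the levels was at hand. Together the 51 members took 4.45% to 5.06% of all FPKM after PBS, 3.99% to 5.14% on day 9, then 9.91%, 6.46% and 8.11% in the 3 day 14 libraries.

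**Figure D1:**
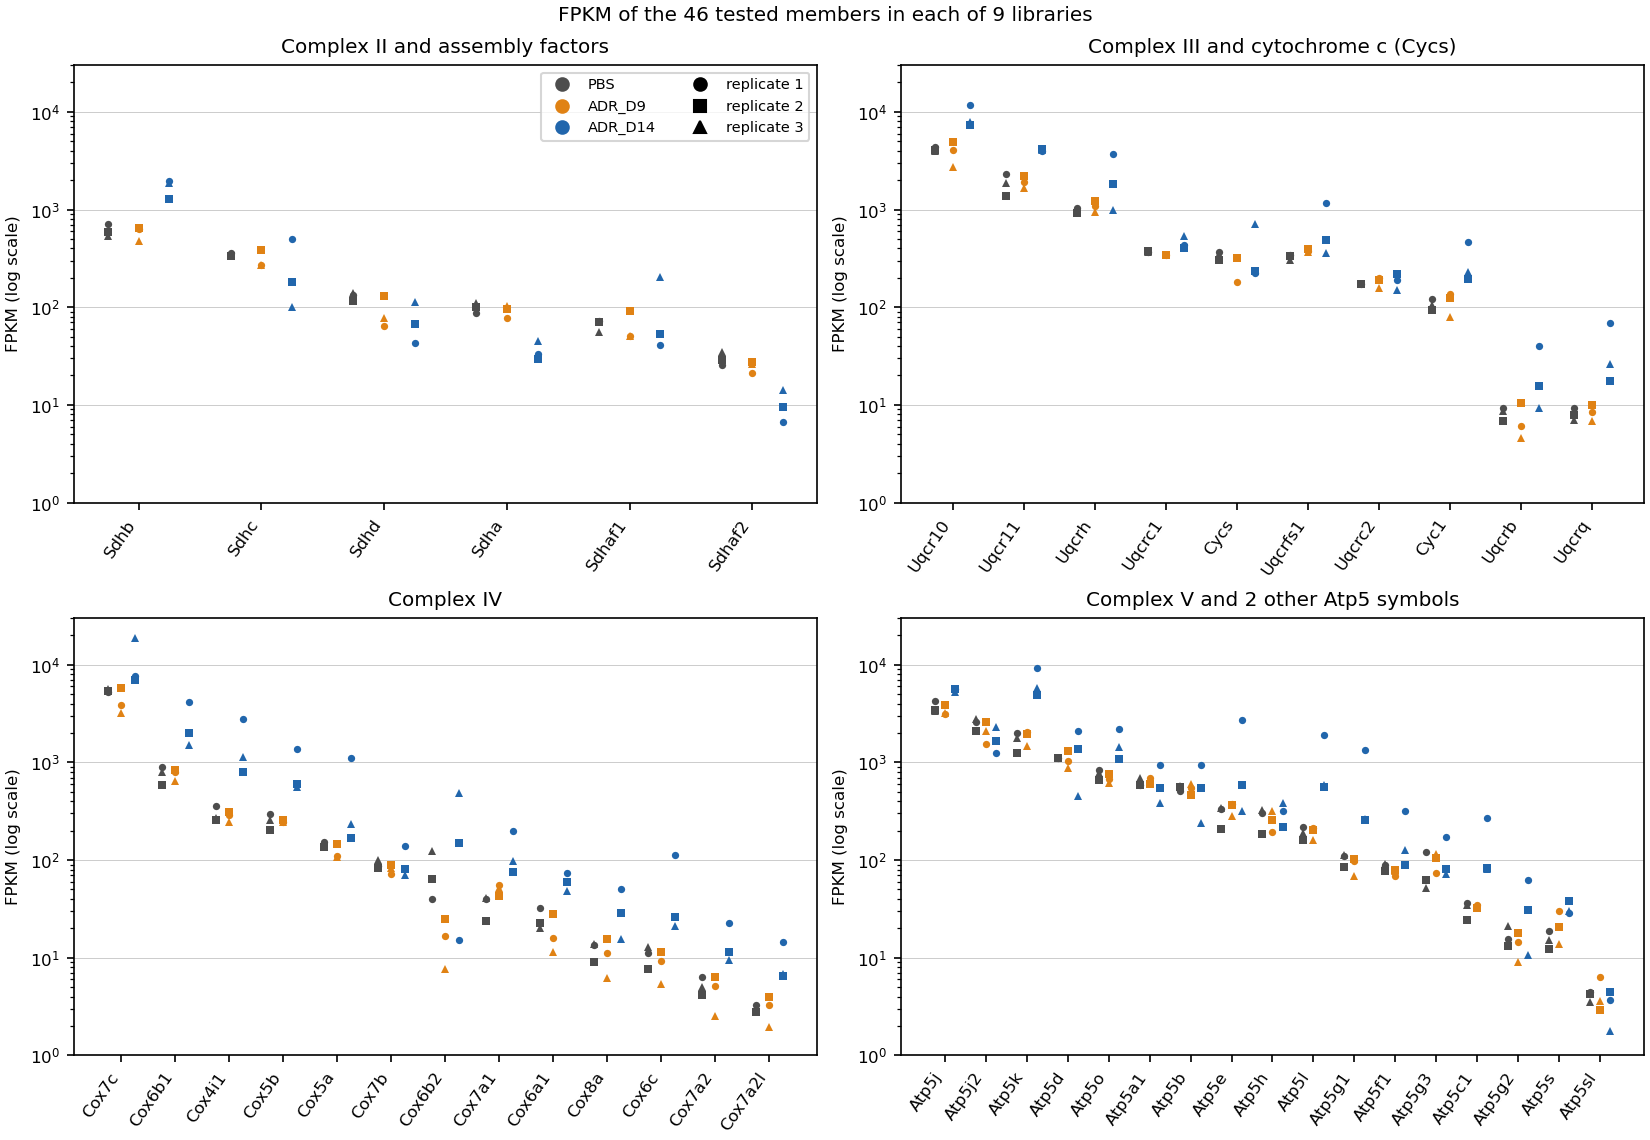
Level of each tested member (y axis, FPKM, log scale) by gene (x axis) and complex, with 1 point per library, coloured by group and shaped by replicate number. In complexes III, IV and V most day 14 points lie above those of PBS and day 9, while those of Sdha and Sdhaf2 lie below and those of Atp5a1, Atp5b and Uqcrc2 overlap.

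The main change lay between day 9 and day 14. On day 14 against PBS, 15 of the 46 tested members rose and 2 fell in limma's test on log2(FPKM + 1), with Benjamini-Hochberg adjustment over all 9788 genes tested and a threshold of 0.05. Of all genes tested, 6.32% rose and 10.7% fell. Scaling moved that split: 619 of 1670 called genes rose as fitted, 859 of 1625 with median-of-ratios scaling, 710 of 1465 with quantile normalization and 414 of 2093 with a common total, while 19, 12 and 11 members rose and 2 fell in each of these. Complex II had 1 subunit of 4 that rose (Sdhb) and 1 that fell (Sdha), and its assembly factor Sdhaf2 fell. In complex III, 3 of 9 rose and 0 fell, in complex IV 6 of 13 rose and 0 fell, and in complex V 5 of 15 subunits rose and 0 fell. Log2 changes are printed after subtracting the median over all 9788 genes, which was −0.15 on day 14 against PBS. They understate changes of low genes, and p-values refer to the change before that subtraction. The median relative change was −0.67 for the 4 complex II subunits, 1.20 for complex III, 1.42 for complex IV, 0.88 for complex V and 1.11 for all 46 members, against 0 for all genes by construction.

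The calls rest on few libraries. Without PBS replicate 2, 0 members and 0 of all genes passed in limma, while 21 members had an unadjusted p under 0.05 (23 in the full fit, against 34.2% of all genes). Without PBS replicate 3, 0 members and 150 of all genes passed, and 22 members had an unadjusted p under 0.05. The median member change was 1.02 and 1.19 in these fits. Without PBS replicate 1, 9 members and 387 of all genes rose. With a term for Y-linked transcripts, 0 of all genes passed, 18 members had an unadjusted p under 0.05, and the median member change was 1.11. All 17 called members kept their sign in each of these fits. Without ADR_D14 replicate 1, the library with markers of tubule and other cells, 13 members rose and 3 fell, with a median of 0.80. Without both libraries that held such markers 18 rose and 3 fell, also with a median of 0.80. Counts over all genes moved too. Of called genes, 671 of 1845 rose without ADR_D14 replicate 1 and 794 of 2165 without both libraries, against 619 of 1670 as fitted.

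Complex II was the complex whose members parted. Sdha, the flavoprotein subunit that holds the succinate site, stood at 87.0, 99.8 and 111 FPKM after PBS, 78.0, 96.7 and 102 on day 9, then 33.2, 29.5 and 45.6 on day 14. All 3 day 14 libraries were below the other 6. Its relative log2 change on day 14 was −1.30 ± 0.23 (SE, limma, adjusted p = 0.0106). Sdhb, the iron-sulphur subunit that takes electrons from Sdha, went the other way, with 704, 587 and 535 FPKM after PBS, 631, 652 and 478 on day 9, then 1947, 1270 and 1863 on day 14. Its day 14 libraries were above all others, with a relative log2 change of 1.60 ± 0.26 (limma, adjusted p = 0.0131). Sdhb was the most abundant member, and the summed level of the 6 complex II members was 1222 to 1382 FPKM after PBS and 2569, 1610 and 2341 on day 14.

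The membrane anchors Sdhc and Sdhd, which bind ubiquinone, did not pass. Sdhc was at 360, 334 and 344 FPKM after PBS and at 498, 181 and 100 on day 14, so that ADR_D14 replicate 1 was above PBS and the other two were below it. Sdhd was at 133, 115 and 141 FPKM after PBS, 64.8, 132 and 76.9 on day 9, then 43.1, 66.8 and 114 on day 14. Its day 14 libraries lay below all PBS libraries, narrowly in replicate 3, and it did not pass (relative log2 change −0.75 ± 0.38, limma, adjusted p = 0.137). Sdhaf2, which helps attach the flavin to Sdha, fell with it: 25.5, 29.0 and 35.1 FPKM after PBS against 6.69, 9.62 and 14.3 on day 14 (−1.36 ± 0.29, limma, adjusted p = 0.0146). Sdhaf1, which serves the iron-sulphur clusters of Sdhb, overlapped between groups, with 204 FPKM in ADR_D14 replicate 3 and 41.4 and 53.3 in the other two. For Sdhaf1, 69.3% of the 36-base stretches also occur in another gene.

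Because Sdha and Sdhb form one enzyme and moved in opposite directions, the 250 bases upstream of each start are shown, from RefSeq on GRCm38.p6, 5′ to 3′ on the gene's strand, with matches to the NRF1 letters (GCGCA, any base, then GCGC, on either strand) in capitals. NRF1 is a transcription factor known for binding promoters of respiratory genes. The Sdha sequence (chr13:74350241-74350490, minus strand) holds 3 matches, the last ending at the base before the start, and the Sdhb sequence (chr4:140961021-140961270, plus strand) holds 0.
Sdha: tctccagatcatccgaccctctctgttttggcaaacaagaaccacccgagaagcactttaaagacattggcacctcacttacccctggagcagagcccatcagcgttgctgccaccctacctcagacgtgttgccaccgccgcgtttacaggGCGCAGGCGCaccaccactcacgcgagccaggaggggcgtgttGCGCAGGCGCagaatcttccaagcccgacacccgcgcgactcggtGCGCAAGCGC
Sdhb: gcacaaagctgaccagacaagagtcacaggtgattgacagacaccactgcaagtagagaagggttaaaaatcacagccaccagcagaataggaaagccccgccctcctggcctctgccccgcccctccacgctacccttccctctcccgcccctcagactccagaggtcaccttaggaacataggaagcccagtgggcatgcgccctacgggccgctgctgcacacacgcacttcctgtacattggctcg

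**Figure D2:**
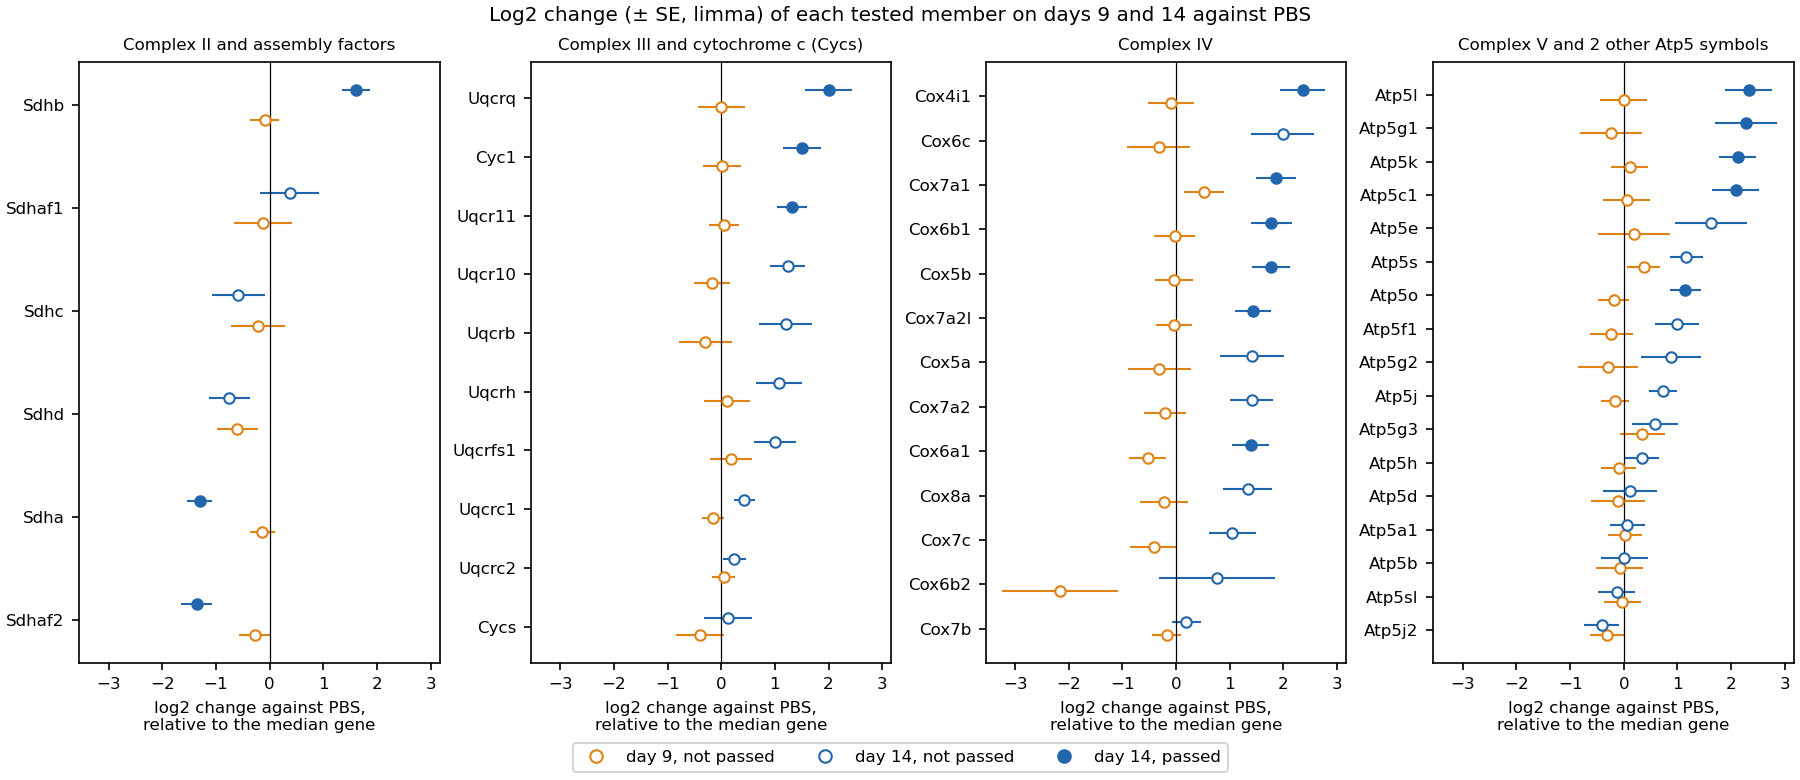
Log2 change against PBS relative to the median gene (x axis, point, with ± 1 SE from limma as bars) of each tested member on day 9 (orange) and day 14 (blue), by complex, with filled points for members that passed. Filled points lie on both sides of 0 only in the complex II panel (Sdhb at 1.60, Sdha at −1.30, Sdhaf2 at −1.36), and 0 day 9 points are filled.

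In complex III, the small accessory subunits Uqcrq and Uqcr11 and cytochrome c1 rose. The small subunits Uqcr10, Uqcrb and Uqcrh did not pass, nor did the large core proteins. Uqcrq, a small subunit bound to cytochrome b, was at 9.36, 7.91 and 6.99 FPKM after PBS, 8.42, 9.96 and 6.77 on day 9, then 68.1, 17.7 and 26.2 on day 14. The groups did not overlap, and ADR_D14 replicate 1 was highest by far (relative log2 change 2.0 ± 0.44, limma, adjusted p = 0.0258). It was 1.49 without that library and still passed, but the call was also lost without PBS replicate 1. Uqcr11, another small subunit, was at 2314, 1360 and 1887 FPKM after PBS and at 3951, 4214 and 4079 on day 14; the day 14 libraries lay close together (1.32 ± 0.28, limma, adjusted p = 0.0265), and the call was also lost without ADR_D14 replicate 2. Uqcr10 was also above all PBS libraries (11687, 7348 and 7951 FPKM against 4001 to 4327) and did not pass (adjusted p = 0.0537 in limma).

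Cyc1, the cytochrome c1 that carries a catalytic haem, was at 122, 93.0 and 105 FPKM after PBS, 138, 123 and 79.2 on day 9, then 462, 194 and 227 on day 14. All day 14 libraries were above the rest (1.50 ± 0.36, limma, adjusted p = 0.0348), and the call was also lost without PBS replicate 1, ADR_D9 replicate 1 or ADR_D9 replicate 2. The core proteins Uqcrc1 and Uqcrc2, which form the matrix arm, moved little. Uqcrc1 was at 371, 375 and 368 FPKM after PBS and at 430, 400 and 541 on day 14, above PBS in each library (0.43 ± 0.20, limma, adjusted p = 0.337). Uqcrc2 was at 171, 172 and 173 FPKM after PBS and at 191, 217 and 150 on day 14 (0.24 ± 0.21, limma, adjusted p = 0.771). The Rieske protein Uqcrfs1, the other electron-carrying subunit encoded in the nucleus, was at 301 to 339 FPKM after PBS and at 1163, 483 and 357 on day 14, so 1 library set most of its difference (0.99 ± 0.39, limma, adjusted p = 0.162).

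Cycs, somatic cytochrome c, which shuttles electrons between complexes III and IV, did not pass. It was at 367, 305 and 351 FPKM after PBS, 182, 319 and 317 on day 9, then 224, 236 and 705 on day 14. ADR_D14 replicate 3 alone was above PBS, and the relative log2 change was 0.12 ± 0.45 (limma, adjusted p = 0.972).

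Among complexes II to V, complex IV had the highest median change. All 13 of its tested members lay above the median gene, as did all 9 of complex III. In 11 of the 13 complex IV members, all day 14 libraries lay above all PBS libraries. Over all 46 members, 25 lay wholly above and 3 wholly below PBS, against 15.6% and 23.8% of all genes. Cox4i1, the ubiquitous isoform of a regulatory subunit, was at 355, 260 and 268 FPKM after PBS, 288, 308 and 247 on day 9, then 2771, 792 and 1135 on day 14. Every day 14 library was above the other 6, with ADR_D14 replicate 1 the highest (2.36 ± 0.42, limma, adjusted p = 0.0146). Without that library the change was 1.87 and still passed. Its counterpart Cox4i2, known as the lung isoform, was at most 0.611 FPKM, so Cox4i1 supplied nearly all of this pair's signal in every group.

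Cox5b, which binds zinc on the matrix side, was at 297, 205 and 260 FPKM after PBS and at 1384, 598 and 565 on day 14 (1.77 ± 0.35, limma, adjusted p = 0.0202). Its partner Cox5a was at 152, 135 and 148 FPKM after PBS and at 1098, 170 and 235 on day 14. Both subunits were higher in each day 14 library, with replicate 1 far above the others for Cox5a, which did not pass (1.42 ± 0.59, limma, adjusted p = 0.166) and did not pass in any of the 9 fits that left out a library. Cox6b1, which faces the intermembrane space near the cytochrome c site, was at 893, 591 and 797 FPKM after PBS and at 4174, 1978 and 1505 on day 14 (1.77 ± 0.39, limma, adjusted p = 0.0258).

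Isoform pairs known from muscle and liver gave a mixed picture. Cox7a1, the isoform best known from heart and skeletal muscle, was at 39.6, 23.6 and 41.1 FPKM after PBS, 55.8, 42.8 and 51.9 on day 9, then 197, 74.6 and 97.0 on day 14, and rose (1.85 ± 0.37, limma, adjusted p = 0.0211). It was the only member of complex IV whose day 9 libraries were all above PBS. Cox7a2, the broadly expressed isoform, was lower throughout at 6.42, 4.11 and 4.97 FPKM after PBS and 22.8, 11.6 and 9.46 on day 14, and did not pass against PBS (1.41 ± 0.40, limma, adjusted p = 0.0594). The related Cox7a2l, which takes part in joining complexes III and IV into supercomplexes, was at 3.29, 2.78 and 2.84 FPKM after PBS and at 14.3, 6.54 and 6.84 on day 14 (1.43 ± 0.34, limma, adjusted p = 0.0352). The Cox7a2l call was also lost without PBS replicate 1, ADR_D9 replicate 1 or ADR_D9 replicate 2, and it shares 20.0% of its 36-base stretches with another gene.

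Cox6a1, the broadly expressed isoform of the pair whose muscle form Cox6a2 was at most 0.141 FPKM, was at 32.5, 22.9 and 20.3 FPKM after PBS, 15.9, 27.9 and 11.5 on day 9, then 73.0, 60.0 and 48.6 on day 14. The day 14 group was compact and above all others (1.39 ± 0.34, limma, adjusted p = 0.0397), but the call was lost without any 1 of PBS replicates 1 to 3, ADR_D9 replicate 1, or ADR_D14 replicates 1 and 2. Its 250 upstream bases (chr5:115348959-115349208, minus strand, RefSeq, GRCm38.p6), shown because it alone had a match to the NRF1 letters among the 11 tested complex IV members with a RefSeq promoter (not Cox4i1 or Cox6c), hold 2 matches in capitals.
Cox6a1: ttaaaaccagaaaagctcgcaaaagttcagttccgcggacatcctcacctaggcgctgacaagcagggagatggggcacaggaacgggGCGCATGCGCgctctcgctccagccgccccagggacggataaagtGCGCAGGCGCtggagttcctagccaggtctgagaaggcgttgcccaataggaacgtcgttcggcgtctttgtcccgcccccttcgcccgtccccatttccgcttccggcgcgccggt

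Of the remaining complex IV members, Cox8a, which has only this isoform above 0 here, was at 13.4, 8.99 and 13.7 FPKM after PBS and 50.0, 28.8 and 15.4 on day 14 (1.34 ± 0.45, limma, adjusted p = 0.102), while Cox8b was at 0 in all 9 libraries. Cox6c was at 7.57 to 12.9 FPKM after PBS and at 112, 25.8 and 21.1 on day 14 (1.99 ± 0.59, limma, adjusted p = 0.062). Cox7c and Cox7b did not pass. Cox6b2, the isoform known from testis, was named after its values were seen: it was at 39.9, 64.3 and 123 FPKM after PBS, 16.7, 25.2 and 7.61 on day 9, then 15.3, 149 and 487 on day 14. ADR_D14 replicate 1, the highest library for most members, was below all PBS libraries here, and the other two were above them.

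In complex V, 5 of 15 subunits rose. The catalytic subunits, and 8 other subunits, did not pass. Atp5a1 and Atp5b, the alpha and beta subunits that form the catalytic hexamer, were at 588, 585 and 692 FPKM and at 514, 554 and 579 FPKM after PBS. On day 14 Atp5a1 was at 947, 550 and 388 FPKM and Atp5b at 948, 542 and 242. For both, ADR_D14 replicate 1 was above PBS and replicate 3 below it, and relative log2 changes were 0.07 ± 0.32 and 0.01 ± 0.43 (limma, adjusted p = 0.88 and 0.849). Without ADR_D14 replicate 1 they were −0.26 and −0.43. Atp5c1, the gamma subunit whose shaft turns inside that hexamer, was at 36.3, 24.4 and 34.7 FPKM after PBS, 34.7, 32.7 and 33.1 on day 9, then 272, 83.5 and 81.8 on day 14, with no overlap (2.09 ± 0.44, limma, adjusted p = 0.0229).

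The c-ring through which protons pass is encoded by 3 genes with near-identical mature proteins, and these differed. Atp5g1 was at 110, 84.8 and 113 FPKM after PBS, 96.6, 104 and 68.9 on day 9, then 1351, 256 and 263 on day 14 (2.28 ± 0.58, limma, adjusted p = 0.0385). All day 14 libraries were above all others, and replicate 1 was more than 5 times the other two. The Atp5g1 call was also lost without PBS replicate 1 or any 1 of the 3 day 9 libraries, with an adjusted p of at most 0.137 in limma. Atp5g2 was at 15.6, 13.0 and 21.0 FPKM after PBS and at 62.4, 30.6 and 10.8 on day 14, and Atp5g3 at 122, 63.2 and 52.0 and at 172, 80.9 and 72.0. Both overlapped with PBS and did not pass (0.88 ± 0.56 and 0.58 ± 0.42; limma, adjusted p = 0.381 and 0.492). Whether the changes of the 3 genes differ from each other was not tested.

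Among the small membrane subunits, Atp5k (subunit e), which with subunit g takes part in joining ATP synthases into dimers, was at 1998, 1233 and 1757 FPKM after PBS, 2038, 1969 and 1467 on day 9, then 9315, 4867 and 5785 on day 14. The lowest day 14 library was more than 2 times the highest of the other 6 (2.12 ± 0.34, limma, adjusted p = 0.0118), the smallest p in complex V. Atp5l (subunit g) was at 219, 160 and 187 FPKM after PBS and at 1892, 558 and 583 on day 14 (2.33 ± 0.44, limma, adjusted p = 0.0177). Atp5o, the stalk subunit that confers oligomycin sensitivity, was at 830, 663 and 778 FPKM after PBS and at 2183, 1088 and 1440 on day 14 (1.14 ± 0.29, limma, adjusted p = 0.0478). The Atp5o call passed in 1 of the 9 fits that left out a library, the one without ADR_D14 replicate 2. Of the other 6 complex V subunits, 0 passed, and Atp5j2 lay below the median gene (−0.41 ± 0.32). The 250 bases upstream of Atp5k (chr5:108434400-108434649, minus strand, RefSeq, GRCm38.p6), shown for the member with the smallest p in this complex, hold 1 match to the NRF1 letters, in capitals.
Atp5k: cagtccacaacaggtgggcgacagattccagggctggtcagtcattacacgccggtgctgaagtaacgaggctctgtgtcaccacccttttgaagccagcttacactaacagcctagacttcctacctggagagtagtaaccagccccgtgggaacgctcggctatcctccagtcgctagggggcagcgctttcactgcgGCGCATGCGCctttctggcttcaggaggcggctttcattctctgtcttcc

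Over all members, matches to the NRF1 letters were found upstream of 7 of the 38 tested members with a RefSeq promoter (18.4%), against 10.1% of 7535 tested genes and 5.84% of 17492 protein-coding genes. By outcome on day 14, 3 of 12 members that rose had a match, 1 of 2 that fell and 3 of 24 that did not pass. ETS letters CCGGAAGT occurred upstream of 3 of 38 members (7.89%, against 7.41% of tested genes), YY1 letters AANATGGCG of 3 (7.89% against 2.72%) and ERR letters AAGGTCA of 2 (5.26% against 3.64%). Both strands were searched, and none of the NRF1 matches printed above overlaps a match to another of these motifs. These are letter matches in a short window and do not show binding.

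On day 9 against PBS, 0 of the 46 members passed in limma (smallest adjusted p of all genes 0.9999, 0% of all genes called), and 0 had an unadjusted p under 0.05, which 3.11% of all genes reached (1.90% upward and 1.21% downward). The median relative change was −0.12 for all members, −0.18 for complex II subunits, 0.02 for complex III, −0.20 for complex IV and −0.09 for complex V. In 4 members the 3 day 9 libraries did not overlap PBS: Uqcrfs1 and Cox7a1 lay above and Uqcrc1 and Cox6b2 below, against 6.77% of all genes above and 6.63% below. Uqcrfs1 was at 373, 392 and 367 FPKM on day 9 and Uqcrc1 at 343, 341 and 342, both close to their PBS values. Cox7a1 had a relative log2 change of 0.51 ± 0.37, Cox6a1 −0.53 ± 0.34 and Sdhd −0.60 ± 0.38 (limma, adjusted p = 0.9999 for each). Cox6b2 had the largest, −2.16 ± 1.08, and did not pass.

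On day 14 against day 9, which uses the same day 14 libraries as the comparison with PBS, 17 members rose and 2 fell, against 5.71% and 9.98% of all genes. At an unadjusted p under 0.05 there were 27 members, against 34.4% of all genes. All 3 day 14 libraries lay above day 9 for 24 members and below for 2, against 13.2% and 24.6% of all genes. Those that fell were Sdha (−1.13 ± 0.23) and Sdhaf2 (−1.05 ± 0.29; limma, adjusted p = 0.0122 and 0.0242). Uqcr10 (1.44 ± 0.33), Cox6c (2.34 ± 0.59) and Cox7a2 (1.65 ± 0.40) rose in this comparison and had not passed against PBS (limma, adjusted p = 0.0406, 0.0424 and 0.0429), and Cox7a1 did not pass here (1.38 ± 0.37, limma, adjusted p = 0.0654). The medians were −0.22 for complex II subunits, 1.30 for complex III, 1.77 for complex IV and 1.21 for complex V subunits, and 1.34 for all members, with a median of −0.22 for all genes before centring. Without ADR_D9 replicate 3, the lowest of 9 libraries for 17 of 46 members, 1 member rose and 1 fell. Without ADR_D9 replicate 1 the counts were 3 and 1, without ADR_D9 replicate 2 they were 4 and 1, and without PBS replicates 1, 2 or 3, which share in the spread only, 11, 7 and 10 members rose.

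The size of the day 14 rise differed between its 3 libraries, as the plot of library medians shows. The median member stood 1.65 above its PBS mean on the relative log2 scale in ADR_D14 replicate 1, 1.01 in replicate 2 and 0.89 in replicate 3. By complex, the medians in replicates 1, 2 and 3 were 1.96, 1.02 and 0.70 for complex III, 2.11, 1.30 and 1.14 for complex IV, and 1.65, 0.71 and 0.68 for complex V. The median of the 4 complex II subunits was below 0 in all 3, at −0.39, −0.76 and −0.48. Its subunits parted here too: Sdhb was at 1.80, 1.25 and 1.78 and Sdhc at 0.64, −0.75 and −1.62. Sdha and Sdhd were below 0 in all 3. ADR_D14 replicate 1 was the highest of all 9 libraries for 31 of 46 members.

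That library also held the tubule markers. Proximal tubule markers summed to 3241 FPKM in it, 44.3 in replicate 2 and 15.4 in replicate 3, against 39.4 to 59.9 with PBS, and distal tubule, loop and duct markers to 12599, 5.12 and 6.31 against 9.84 to 38.2. Aqp2, a collecting duct water channel, was at 9099 FPKM in replicate 1 and at 0.312 and 1.21 in the other two. Among defining proximal tubule markers, Slc5a2 and Hnf4a were at 0 in replicates 2 and 3, and Slc34a1 was at 0.0788 and 0.0425 FPKM. Without replicate 1, 3 of 9 complex III, 5 of 13 complex IV and 4 of 15 complex V subunits rose, and their medians were 0.66, 1.27 and 0.49, down from 1.20, 1.42 and 0.88. The larger changes in replicate 1 moved with tubule markers, whose part in them was not tested. Endothelial markers summed to 435 and 111 FPKM in replicates 2 and 3, against 446 to 551 with PBS. Cldn5 alone was at 434 and 93.5 FPKM, against 439 to 548 with PBS, so these sums say little about the other endothelial markers. Leukocyte markers summed to 13.9 and 36.7 FPKM in replicates 2 and 3, against 6.53 to 36.9 with PBS. Depth moved with the rise too, since all 3 day 14 libraries were the shallowest, as did podocyte markers, whose sum was lower in all 3 than in the other 6, and the part of each was not tested.

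**Figure D3:**
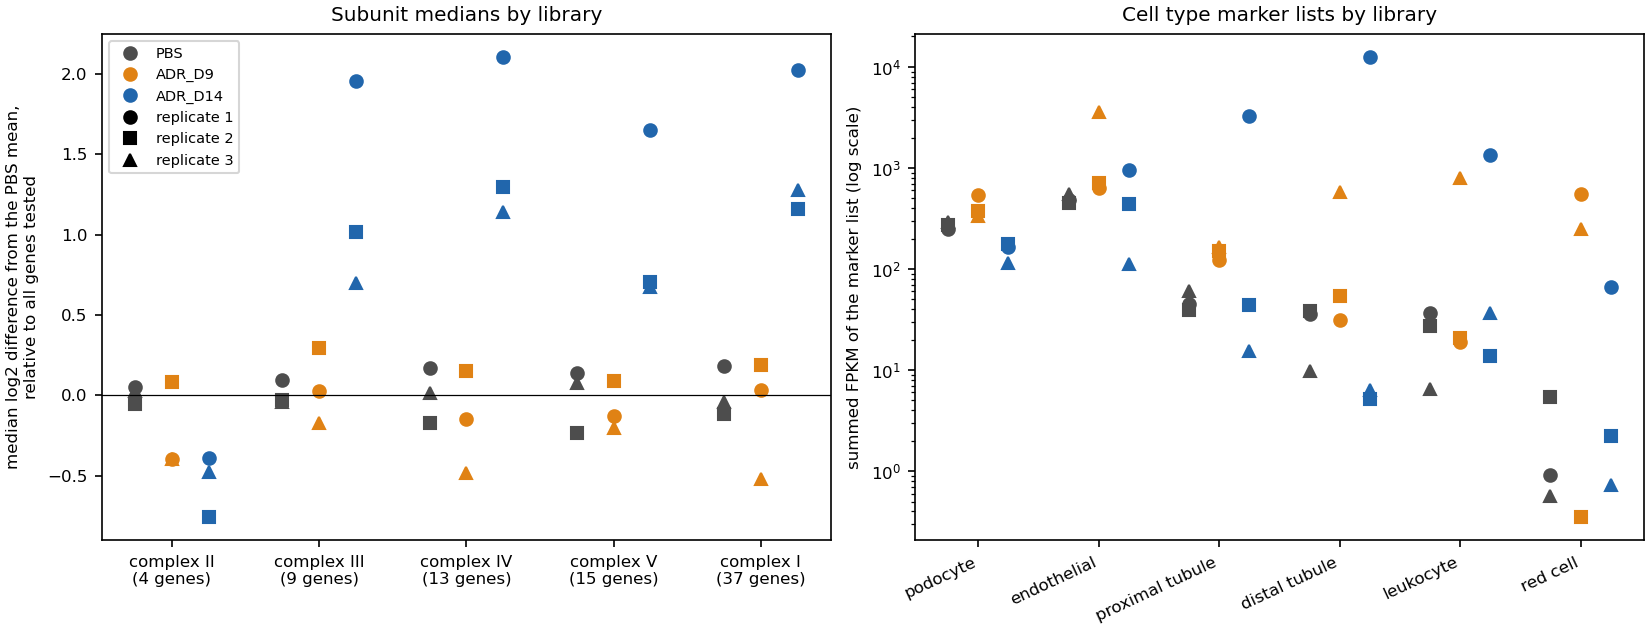
Left, the median over tested members of each complex (and of complex I) of the log2 level against the PBS mean, relative to the median gene (y axis), by complex (x axis), with 1 point per library, coloured by group and shaped by replicate number. Right, the summed level (y axis, FPKM, log scale) of each marker list (x axis) in the same libraries. Complexes III, IV, V and I lie at 0.68 or higher in all 3 day 14 libraries and complex II lies below 0, while proximal tubule markers stand far above the other libraries in ADR_D14 replicate 1 alone.

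Transcript length moved with the day 14 change. Over 9734 genes with a GENCODE M21 transcript, Spearman's rho between the day 14 change and the length of the longest transcript was −0.33, and over the 46 members it was −0.31; genes share libraries and are not independent. On day 9 the values were 0.07 and −0.07. Members are short, with a median longest transcript of 1297.5 bases against 3177.5 for all genes tested. Among the shortest 10% of genes (74 to 1295 bases), all genes had a median change of 0.74 and 21.1% rose, and the 23 members in it had a median of 1.24, with 10 that rose and 0 that fell. With a trend on length and GC content removed from every gene, 5 members rose and 2 fell, with a median of 0.36. Those were Cox4i1 (1.90), Atp5c1 (1.59), Atp5g1 (2.55), Atp5k (1.60) and Atp5l (2.40), and Sdha (−1.33) and Sdhaf2 (−1.33). Of the 9734 genes in that fit, 576 passed, of which 293 rose. By complex, 0 of 9 complex III, 1 of 13 complex IV and 4 of 15 complex V subunits rose, with medians of 0.36, 0.79 and 0.25. Of 4 complex II subunits 0 rose and 1 fell, with a median of −0.92. The expressed transcript can be shorter than the longest one, as may hold for Atp5l (6310 bases) and Atp5g1 (4715 bases), whose coding sequences span 309 and 408 bases. Sdhb did not pass with the length and GC trend removed (1.04, limma, adjusted p = 0.0587).

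**Figure D4:**
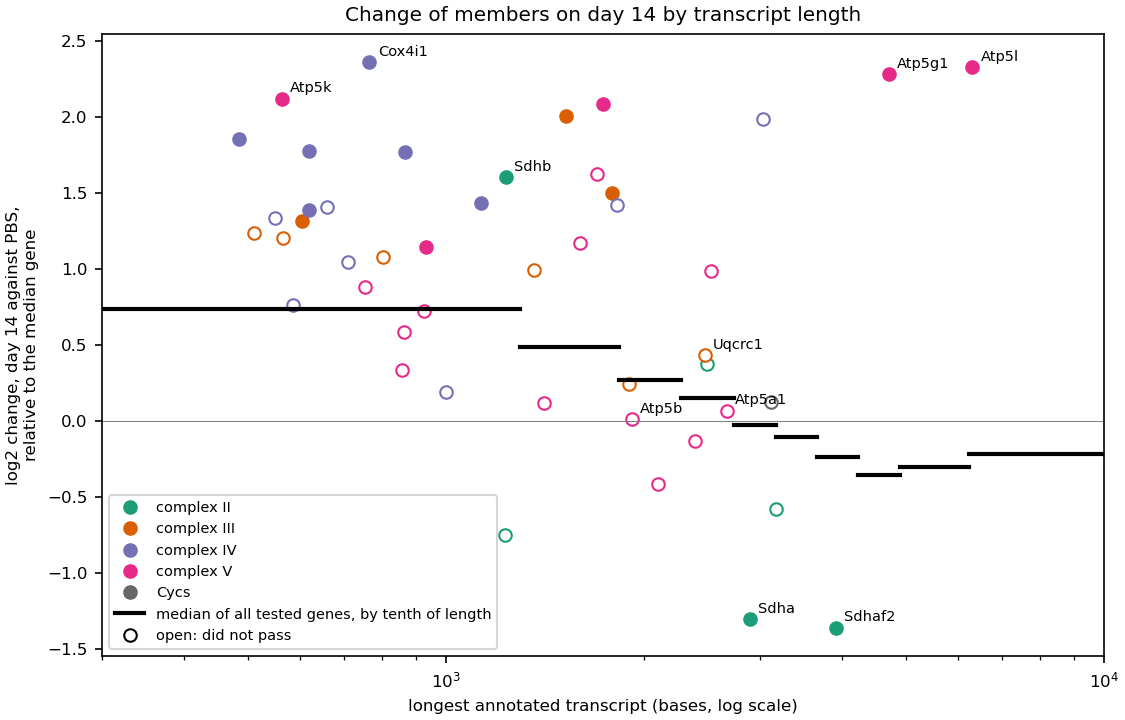
Day 14 change against PBS relative to the median gene (y axis, log2) against the length of the longest annotated transcript (x axis, bases, log scale) for the 46 members, coloured by complex, with the median of all genes in 10 bins of length as a line. The shortest bin holds 23 members and a line value of 0.74, and Atp5g1 (2.28) and Atp5l (2.33) lie at lengths where the line is below 0.

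Complex I, which feeds electrons from NADH into the same chain, moved in the same direction as complexes III to V. On day 14 against PBS, 19 of 37 tested Nduf genes rose and 0 fell, with a median of 1.61. This set was chosen by symbol, here and in the plot of library medians. It includes Ndufa4, which was also listed among assembly factors and partners of complexes II to V. Of all genes tested, 6.32% rose and 10.7% fell. Whether complex I and the other complexes differ was not tested. Of 29 tested assembly factors and partners outside the symbol rule, 9 rose and 1 fell, with a median of 0.58. The counts for both sets are from the fit without removal of the length trend. Higd1a, which associates with complex IV, was at 57.9 FPKM after PBS and 140 on day 14 (1.41 ± 0.19, limma, adjusted p = 0.00994). Atpif1, the inhibitor of ATP synthase hydrolysis, was at 397 and 1852 FPKM (2.28 ± 0.34, limma, adjusted p = 0.0108). Cox17, which delivers copper to complex IV, was at 5.83 and 18.6 FPKM, and Coa3, a complex IV assembly factor, at 1.80 and 7.43 (1.65 ± 0.28 and 1.74 ± 0.32; limma, adjusted p = 0.0139 and 0.0173).

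Of 14 tested genes for known regulators of respiratory gene expression, 0 rose and 4 fell on day 14 against PBS, against 6.32% and 10.7% of all genes, with a median of −0.34. The other 3 of the 17 listed (Ppargc1a, Esrrb, Esrrg) were too low to be tested. Ppargc1a, the coactivator PGC-1 alpha, was at 0.366, 0.378 and 0.421 FPKM after PBS, 0.368, 0.456 and 1.39 on day 9, then 10.1, 0.193 and 0.254 on day 14, highest by far in ADR_D14 replicate 1. Those that fell were Pprc1, a PGC-1-related coactivator (7.10 FPKM after PBS, 0.985 on day 14, −1.88 ± 0.25), Ppargc1b, the coactivator PGC-1 beta (1.91 and 0.662 FPKM, −0.66 ± 0.19), Esrra, an oestrogen-related receptor (24.3 and 10.4 FPKM, −0.96 ± 0.28), and Polg2, a subunit of the mitochondrial DNA polymerase (12.3 and 2.72 FPKM, −1.77 ± 0.53). Their adjusted p-values in limma were 0.00994, 0.0258, 0.03 and 0.0393. These calls are from the fit without removal of the length trend. Without PBS replicate 2, or with a Y-linked term, 0 of all genes passed against PBS. Pprc1 and Ppargc1b were below 1 FPKM in all 3 day 14 libraries, the shallowest ones. Nrf1 was at 17.3 FPKM after PBS and 19.0 on day 14, and Tfam, a mitochondrial transcription factor, at 1.40 and 1.16, and neither passed.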

How the data were processed

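The values are FPKM from 9 libraries of GFP-positive mouse podocytes, deposited by the authors as 1 table with a column per library. Per the submitters' processing notes, the tools were Bowtie 0.12.7 and Cufflinks, on mouse build mm9. The Cufflinks version, gene annotation, strand setting and handling of reads with several matches were not given in the sources used here. The 23813 rows carry 23309 symbols. For 260 symbols found on several rows, the row of highest mean was used; 0 of these are members. Columns headed control were matched to PBS by replicate number.

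The 9788 genes that reached 1 FPKM in 3 or more libraries entered 1 limma fit (limma 3.58.1, R 4.3.3, variance trend) of log2(FPKM + 1) over the 9 libraries, with group as the only term. Tests were two-sided and p-values were adjusted by Benjamini-Hochberg per comparison over all 9788. The median change over these genes was subtracted from each printed log2 change, because scalings move that median by over 0.1. On day 14 against PBS it ran from −0.34 with a common total to −0.01 with median-of-ratios scaling. The fit was tested on simulated data. Read counts were not used, so no counting interval is given; relative depth was estimated from values under 0.3 FPKM.

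Transcript lengths, GC content and 36-base stretches came from GENCODE M21 transcripts (99.4% of tested symbols matched), and promoters from RefSeq, GRCm38.p6 (40 of 51 members matched). Both are of a later build than mm9 and were matched by symbol. Members and lists were chosen with earlier results of these data known. Full values are given for core subunits and isoforms, for up to 3 further members per complex with the smallest p on day 14 against PBS, and for up to 4 assembly factors. Cox6b2, Cox7c and the promoter sequences shown were chosen after values were seen. Alternatives were another pseudocount (0.1), other filters and scalings, duplicate symbols summed, other variance models, only the groups compared, a replicate block, 2 libraries left out for markers of other cells, a Y-linked term, removal of a trend on length and GC, and each library left out in turn. An item of the podocyte marker list is not reported here and was left out of its sums.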

Additional observations from a re-analysis of the deposited data

Results flagged for a closer look

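Against PBS, the effect of day 14 differed from that of day 9 in 19 of 46 members, against 15.7% of all genes. These are the calls of day 14 against day 9 given above (limma, adjusted p under 0.05). Of the 19, 2 still passed in the same direction without ADR_D9 replicate 3. Without ADR_D9 replicate 1 it was 4, without ADR_D9 replicate 2 it was 5, and with only the groups compared 0. The day 14 effect was lower for Sdha (−1.13) and Sdhaf2 (−1.05) on the relative log2 scale, with all 3 day 14 libraries below all day 9 libraries. It was higher for Sdhb (1.73). In complex III it was higher for Uqcr10 (1.44), Uqcr11 (1.30), Uqcrq (2.03) and Cyc1 (1.52). In complex IV it was higher for Cox4i1 (2.49), Cox5b (1.85), Cox6a1 (1.95), Cox6b1 (1.84), Cox6c (2.34), Cox7a2 (1.65) and Cox7a2l (1.50). In complex V it was higher for Atp5c1 (2.06), Atp5g1 (2.55), Atp5k (2.04), Atp5l (2.36) and Atp5o (1.37). Groups of 3 libraries were too small for the outlier test used.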

How the results depend on the processing

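On day 14 against PBS, 15 members rose and 2 fell as fitted. The counts were 6 and 2 without a filter on low values, 2 and 1 with only the groups compared, 0 and 0 with a Y-linked term, and 5 and 2 with the trend on length and GC removed. Leaving out 1 library at a time gave 0 to 19 that rose and 0 to 3 that fell. On day 14 against day 9, 17 rose and 2 fell as fitted. The counts were 5 and 2 without a filter, 11 and 2 with a common total, 12 and 1 with quantile normalization, 0 and 0 with only the groups compared, 11 and 2 without the 2 libraries that held tubule or endothelial markers, 11 and 2 with a Y-linked term, and 4 and 1 with the length and GC trend removed. Leaving out 1 library gave 1 to 19 that rose and 1 to 3 that fell. Comparing only 2 groups or leaving out a library reduces the samples behind the spread and changes which libraries share it. As fitted, all groups share an estimate of the spread. The median member ranged more between day 14 libraries (0.89 to 1.65) than between PBS (−0.17 to 0.12) or day 9 libraries (−0.26 to 0.15). If the groups differ in spread, the shared fit can make p-values for day 14 too small. Using no filter adds tests. The part of each in the counts, and other causes, were not tested. All 17 and 19 called members kept their sign in each alternative run, and 0 members passed on day 9 in any.

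Some changes of members that did not pass reversed sign. Against PBS, Uqcrc2 was −0.087 with quantile normalization and −0.33 without the length and GC trend. Cycs was −0.017 without a filter, −0.25 with quantile normalization, −0.41 with a Y-linked term, −0.058 without the length and GC trend, and −0.42 to 0.43 with 1 library left out. Atp5a1 was −0.071, −0.32 and −0.26 without a filter, with quantile normalization and without the 2 marker libraries, and −0.26 to 0.36 with 1 library left out. Atp5b was −0.13 without a filter, −0.052 with a common total, −0.34 with quantile normalization, −0.43 without the marker libraries, −0.39 without the length and GC trend, and −0.43 to 0.53 with 1 library left out. Atp5g3 was −0.20 without the length and GC trend. Sdhaf1 was −0.013 with a Y-linked term and −0.33 to 0.83 with 1 library left out. Against day 9, Sdhc was −0.95 to 0.19 and Sdhd −0.47 to 0.23 with 1 library left out, and Sdhd 0.11 without the marker libraries. Uqcrc2 was −0.19 with quantile normalization and −0.42 without the trend. Atp5a1 was −0.12, −0.42 and −0.29 without a filter, with quantile normalization and without the marker libraries, and −0.26 to 0.38 with 1 library left out. Atp5b was −0.072, −0.39, −0.29 and −0.30 under those 3 and without the trend, and −0.33 to 0.65 with 1 library left out. Atp5g3 was −0.019 with quantile normalization, −0.012 without the marker libraries, −0.62 without the trend, and −0.10 to 0.51 with 1 library left out, and Sdhaf1 −0.16 to 0.98. On day 9, 20 of 33 named members changed sign under at least 1 alternative. The causes were not tested.

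Replicate numbers are shared between groups. Deviations of same-numbered libraries correlated at −0.27 to 0.43, and those of differently numbered libraries at −0.52 to 0.46. With 3 libraries a group, these values cannot tell whether same-numbered libraries share more than a number. With the replicate block, 13 members rose and 2 fell against PBS, and 14 and 2 against day 9. Low depth on day 14 limits the low members most, such as Cox7a2l, Uqcrq and Cox7a2.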

Other observations

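Summed levels by complex show which single members carry the totals. Complex IV took 1.14% to 1.29% of all FPKM with PBS and 2.46%, 1.56% and 3.22% in ADR_D14 replicates 1, 2 and 3, and its highest share was in replicate 3, where Cox7c alone was at 18953 FPKM against 7711 and 6961 in the other two. Complex III took 1.25% to 1.38% with PBS and 3.0%, 2.10% and 1.99% on day 14. Complex V took 1.80% to 2.14% with PBS and 4.08%, 2.53% and 2.48% in ADR_D14 replicates 1, 2 and 3. Cox7c did not pass in limma (relative log2 change 1.04 ± 0.44 on day 14 against PBS, adjusted p = 0.183).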
